A study of Oryza sativa Indica Group with 6 samples.

Results

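Glutathione transferases were followed in leaves of 2 rice genotypes, before and during submergence, through the 54 array probes whose description names a glutathione transferase, out of 21495 gene probes on the array. The probes were found by the words glutathione S-transferase, glutathione transferase or OsGST in the description that the array files give. The search itself used no measured value, but the members were chosen with earlier results of these data known. Of the 54, 25 were described as tau class, 4 as phi class, 4 as theta or zeta class and 21 gave no class. A rice sequence was named in 34 of the descriptions, and the others name the most similar gene of another plant and are written here with "like", so that GST20-like stands for a rice probe described by maize GST 20.

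The study set FR13A, an indica rice that tolerates being under water, against IR24, a susceptible rice. Each of 6 Agilent arrays held leaf RNA of both genotypes in 2 dyes. The arrays fell into 3 groups of 2. The constitutive group was untreated and was harvested 14 days after sowing. The other groups were submerged inside transparent polythene bags, one for 15 min with harvest on day 14 and one for 24 h with harvest on day 15. Replicate 2 of each group carried the dyes the other way round from replicate 1. The arrays used here hold no unsubmerged plants of day 15, so that 24 h of submergence and 1 more day of growth cannot be told apart. Nothing in the labels says whether replicates came from separate plants, and p-values then measure the spread between these arrays, which may be technical.

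Glutathione transferases join the small peptide glutathione to reactive or foreign molecules, and the conjugates are then moved into the vacuole by ABC transporters. Several of them also reduce organic peroxides with glutathione. The tau and phi classes are large in plants, take part in herbicide detoxification and are often induced by stress. The zeta class works in tyrosine breakdown as maleylacetoacetate isomerase, and the theta class acts mostly as a glutathione peroxidase. Submergence limits oxygen, and return to air is known to bring oxidative stress.

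Gene probes well above background made up 85.4% to 92.2% of an array in Cy3 and 81.8% to 95.3% in Cy5. Replicate ratios correlated across probes at 0.708 in constitutive leaves, 0.616 at 15 min and 0.723 at 24 h, and genes are not independent replicates. The number of arrays limits the precision. Leaf markers were detected: 16 of 18 probes for Rubisco small subunit, Rubisco activase and chlorophyll-binding proteins were well above background in all 12 channels. So were 5 of 9 seed storage markers and 2 of 3 pollen markers. Most gene probes were detected, so that detection alone does not identify the tissue. Of 9 root-specific probes, 8 were kept and 4 were well above background in all 12 channels. In bulk leaf RNA, fewer cells of a type and less RNA per cell cannot be told apart.

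Of the 54 probes, 42 were well above background in all 12 channels, none was saturated, and 53 passed the filter on dim probes. GST28-like (AK064627) was above background in 0 of 12 channels and is not described further. The 11 other incompletely detected probes include OsGSTF4 (AK059985), OsGSTU18 (AK103309) and OsGSTU5 (AK103316). The 54 probes carried 39 distinct descriptions, and 27 of them shared a description with another member. Among 12 shared descriptions, 5 had 1 probe called between the genotypes over all times while the rest were not, and 0 had all their probes called. Of all probes, 20.2% were called in that comparison. A call beside none is not itself a difference. For OsGSTU6 the called AK059760 was at 0.34 and the uncalled AK103699 at 0.42. The median spread of the log2 difference within a description was 0.234, and some probes behaved apart. OsGSTU11 is the widest case, with a log2 difference of -1.70 (SE 0.07) for AK061436 over all times, against -0.06 for AK107577. Of the 3 probes described as OsGSTU4, AK106938 stood at 0.86, AK105198 at 0.00 and AK103453 at -0.12. A name therefore does not identify which rice gene a probe measures, and each probe is given with its cDNA number. The letters of the probes were not used here, so cross-hybridisation among family members and sequence differences between the genotypes at a probe were not tested.

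**Figure D1:**
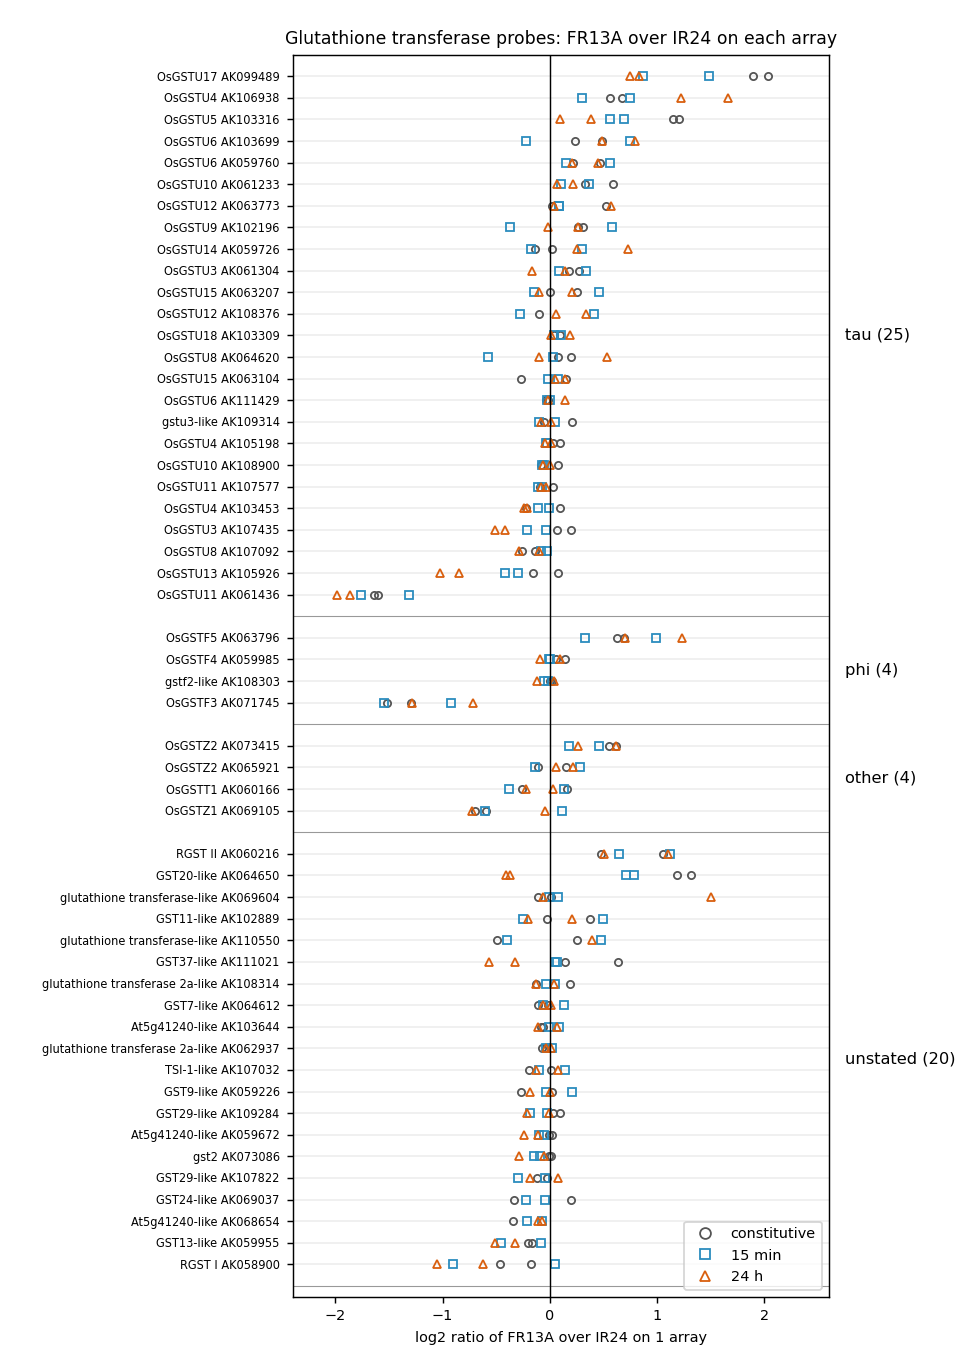
Log2 ratio of FR13A over IR24 (x axis) on each of the 6 arrays for the 53 measured glutathione transferase probes (1 line per probe, grouped by class, ordered by mean ratio). Grey circles are constitutive leaves, blue squares 15 min and orange triangles 24 h. OsGSTU17 lies right of 0 on all 6 arrays and OsGSTU11 (AK061436) and OsGSTF3 left of 0, while GST20-like crosses from right to left at 24 h.

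The first question is how the genotypes differ over all times. On the mean of the 3 times, 9 probes were higher and 4 lower in FR13A than in IR24 out of 52 tested. A call here is a limma p adjusted over all probes of the array under 0.05. The 13 calls are 25% of the members, against 20.2% of all probes, so that the share lies near the background. The median log2 difference was 0.005 for the members and -0.004 for all probes, and the median size without sign was 0.11 and 0.12. By class, 5 tau probes were higher and 2 lower of 25, 1 phi probe was higher and 1 lower of 4, 1 of the 4 theta and zeta probes was higher, and 2 of the 19 tested probes without a class were higher and 1 lower.

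OsGSTU17 (AK099489, tau) was the member with the largest excess in FR13A. Its log2 ratios of FR13A over IR24 were 1.90 and 2.03 in constitutive leaves, 0.87 and 1.49 at 15 min, and 0.83 and 0.74 at 24 h. All 6 arrays lay above 0. The mean difference was 1.31 (SE 0.09, n = 6 arrays, limma adjusted p = 0.000559), a 2.48-fold higher level in FR13A.

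OsGSTU11 (AK061436, tau) was the reverse. Its log2 ratios were -1.61 and -1.64 in constitutive leaves, -1.76 and -1.32 at 15 min, and -1.99 and -1.86 at 24 h. No array came near 0, and the mean difference of -1.70 (SE 0.07, limma adjusted p = 0.000123) made the signal 3.24-fold lower in FR13A. OsGSTF3 (AK071745, phi) was also lower on all 6 arrays. Its log2 ratios were -1.29 and -1.52 in constitutive leaves, -0.92 and -1.54 at 15 min, and -0.72 and -1.28 at 24 h, with a mean of -1.21 (SE 0.12, adjusted p = 0.00163). OsGSTU11 and OsGSTF3 thus pointed the same way at every time, and so did OsGSTU17 in the opposite direction.

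OsGSTU4 (AK106938, tau) had log2 ratios of 0.56 and 0.67 in constitutive leaves, 0.30 and 0.75 at 15 min, and 1.22 and 1.66 at 24 h, and a mean of 0.86 (SE 0.09, adjusted p = 0.00231). OsGSTF5 (AK063796, phi) had 0.62 and 0.69, then 0.32 and 0.99, then 0.70 and 1.23 at the same times, and a mean of 0.76 (SE 0.11, adjusted p = 0.00813). For both probes every array lay above 0. RGST II (AK060216), which the description calls a second glutathione transferase of rice, was higher in FR13A on every array. Its log2 ratios were 0.47 and 1.06, then 0.64 and 1.12, then 0.51 and 1.10, with a mean of 0.82 (SE 0.13, adjusted p = 0.00897). At each time replicate 2, with the dyes exchanged, gave the larger ratio.

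OsGSTU5 (AK103316, tau) had log2 ratios of 1.15 and 1.20 in constitutive leaves, 0.56 and 0.69 at 15 min, and 0.09 and 0.39 at 24 h. The excess in FR13A was thus smallest at 24 h, when 1 of 2 arrays had the probe well above background in each genotype, and the mean was 0.68 (SE 0.06, adjusted p = 0.00127). OsGSTZ2 (AK073415, zeta) was higher on all 6 arrays, with a mean of 0.45 (SE 0.07, adjusted p = 0.01). GST13-like (AK059955) was lower on all 6, with a mean of -0.29 (SE 0.07, adjusted p = 0.0345). The calls of the first 8 probes described here remained when any 1 array was left out. That of GST13-like was lost without any 1 array but 15 min replicate 1, with means of -0.35 to -0.23 and an adjusted p of up to 0.113.

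The other 4 calls over all times fell outside the rule for full description, and all are named after their values were seen. OsGSTU6 (AK059760) at 0.34 and OsGSTU10 (AK061233) at 0.28 were higher on 6 of 6 arrays with smaller differences (adjusted p = 0.0351 and 0.0362). Both calls were lost without any 1 array but 15 min replicate 1 (adjusted p up to 0.121 and 0.125), with the replicate block (0.0577 and 0.0522) and with median centring, and that of OsGSTU6 with the scan day as a block (0.12). GST20-like (AK064650) at 0.54 and OsGSTU13 (AK105926) at -0.44 differed in sign between arrays, and both are described further with the single times. Their calls held without any 1 array and were lost with median centring. The 39 probes not called ranged from -0.53 to 0.42, and 36 of them lay within 0.25 of 0. RGST I (AK058900), at -0.53 with 1 of 6 arrays above 0, missed the threshold at an adjusted p of 0.0504.

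In untreated leaves 3 members were higher and 2 lower in FR13A than in IR24, out of 53 tested. That is 9.43% of the members, against 6.15% of all probes. OsGSTU17 was higher by 1.96 (SE 0.16, adjusted p = 0.00298), GST20-like by 1.25 (SE 0.08, adjusted p = 0.00189) and OsGSTU5 by 1.18 (SE 0.10, adjusted p = 0.00392) on the log2 scale. OsGSTU11 was at -1.62 (SE 0.12, adjusted p = 0.00272) and OsGSTF3 at -1.41 (SE 0.20, adjusted p = 0.017). The largest of these differences, that of OsGSTU17, is a 3.90-fold higher level in FR13A. With 2 arrays a time, most of these calls needed both constitutive arrays. Without either 1, OsGSTU17 (1.90 to 2.03, adjusted p up to 0.0663), OsGSTU5 (1.15 to 1.20, up to 0.0764) and OsGSTF3 (-1.52 to -1.29, up to 0.163) lost the call, and OsGSTU11 lost it without replicate 1 (up to 0.0641), while GST20-like kept it.

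After 15 min under water the 5 called probes were again OsGSTU17 at 1.18, GST20-like at 0.75 and OsGSTU5 at 0.63, higher in FR13A, and OsGSTU11 at -1.54 and OsGSTF3 at -1.23, lower in FR13A. Their adjusted p lay between 0.00393 and 0.03. They are 9.43% of the 53 members tested, against 5.33% of all probes. The log2 ratios of GST20-like were 0.71 and 0.78, closer to each other than those of the other 4. The call of OsGSTU11 held without any 1 array. Without 15 min replicate 2, OsGSTU17 (0.87, adjusted p = 0.0677) and OsGSTF3 (-0.92, adjusted p = 0.162) lost it, as they did without either constitutive array (adjusted p = 0.0504 and 0.0741), and GST20-like lost it without either 15 min array (0.71 to 0.78, adjusted p up to 0.102). OsGSTU5 lost it without either array of either time (0.56 to 0.69, adjusted p up to 0.212).

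At 24 h the called set was different in part. Out of 52 tested, 3 members were higher and 4 lower, 13.5% of the members against 7.63% of all probes. OsGSTU4 was higher by 1.44 (SE 0.16, adjusted p = 0.00555), a 2.71-fold difference, OsGSTF5 by 0.96 (SE 0.20, adjusted p = 0.044) and OsGSTU17 by 0.79 (SE 0.16, adjusted p = 0.0401). OsGSTU11 was at -1.93 (SE 0.12, adjusted p = 0.00106), a 3.80-fold lower signal in FR13A, and OsGSTF3 at -1.0 (SE 0.20, adjusted p = 0.0407). OsGSTU13 (AK105926, tau) had log2 ratios of -0.85 and -1.02 at 24 h, against 0.08 and -0.16 in constitutive leaves. Its difference at 24 h was -0.94 (SE 0.10, adjusted p = 0.00571). OsGSTU3 (AK107435, tau) stood at -0.51 and -0.42 on the 24 h arrays, with a difference of -0.46 (SE 0.09, adjusted p = 0.0415).

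OsGSTU17, OsGSTU11 and OsGSTF3, 3 probes in all, were thus called at each of the 3 times taken one by one, 2 (GST20-like and OsGSTU5) in constitutive leaves and at 15 min, and 4 (OsGSTU4, OsGSTF5, OsGSTU13 and OsGSTU3) at 24 h. The shares of all probes with these patterns were not counted, so that these numbers have no background beside them. The 3 times share 1 estimate of the spread, and whether a call at 1 time differs from none at another is tested only by the change of the ratio given below. At 24 h OsGSTU11 alone kept its call without any 1 array. OsGSTU4 (1.22, adjusted p = 0.0686) and OsGSTU13 (-0.85, adjusted p = 0.0835) lost it without 24 h replicate 2. OsGSTF5 (0.70 to 1.23, adjusted p up to 0.305), OsGSTU17 (0.75 to 0.83, up to 0.24) and OsGSTF3 (-1.28 to -0.72, up to 0.29) lost it without either 24 h array or either constitutive array, and OsGSTU3 without any array (-0.51 to -0.42, up to 0.27).

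The normalisation within an array also mattered for these counts. With each array centred on its median in place of loess, the members called were OsGSTU17, OsGSTU4, RGST II, OsGSTU11 and OsGSTF3 over all times, OsGSTU17 and OsGSTU11 in constitutive leaves, and OsGSTU11 at 15 min and at 24 h, and no called difference changed sign. With the scan day as a block, the calls lost were GST13-like over all times (adjusted p = 0.0975), OsGSTU17, GST20-like and OsGSTU5 at 15 min (0.0655 to 0.0843), and OsGSTU17 and OsGSTU3 at 24 h (0.102 and 0.0932). The replicate block ended the calls of OsGSTU17 and OsGSTU3 at 24 h (adjusted p = 0.0512 and 0.0509), no filter on dim probes that of OsGSTF5 at 24 h (0.0515), and the processed intensities those of GST13-like over all times (0.0702) and OsGSTU3 at 24 h (0.111). The processed intensities also gave larger differences for some probes. OsGSTU4 was then at 1.55 over all times and 2.19 at 24 h, OsGSTF5 at 1.27 and 1.87 at the same, OsGSTU10 at 0.58 over all times, and OsGSTU5 at 1.33 over all times, 1.91 in constitutive leaves and 1.41 at 15 min.

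Root markers also differed between the genotypes. Of the 8 kept, 2 were higher and 1 lower in FR13A over all times and at 24 h, 37.5% against 20.2% and 7.63% of all probes. Their summed intensity was 3453 to 3634 in FR13A and 4748 to 5761 in IR24 in constitutive leaves, and 5516 to 7358 in FR13A and 7009 to 10252 in IR24 at 24 h. The brightest root probe, AK063684, leads these sums and was lower in FR13A on every array. In constitutive leaves it had log2 intensities of 10.25 and 10.06 in FR13A and 11.51 and 11.79 in IR24. AK062911 was higher in FR13A on every array, and the median of the 8 over all times was -0.004. Summed leaf markers overlapped between the genotypes at every time, at 338013 to 638270 in FR13A and 249874 to 516768 in IR24 at 24 h. These sums hold very bright probes whose ratio turned sign with the dyes. AK060265 had log2 ratios of -2.01 and 1.10 in constitutive leaves, and AK058310 of -1.01 and 2.06 at 24 h. The overlap therefore does not show equal leaf content, and saturation is given for the members alone. The part of these levels in the differences of the glutathione transferases was not tested.

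The second question is whether submergence altered the genotype difference itself. For 15 min no member was called out of 53, and 0 of all probes (0%) were. The 3 smallest p belonged to GST20-like with a change of -0.50 (SE 0.12), OsGSTU5 with -0.55 and OsGSTU17 with -0.79, each with a limma adjusted p of 1, and these 3 were the members with an unadjusted p under 0.05. All 3 had lower ratios at 15 min than in constitutive leaves. Of all 20311 probes tested for this change, 428 had an unadjusted p under 0.05. For 24 h 1 of 52 members was called, 1.92% against 0.108% of all probes.

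That member was GST20-like (AK064650), a probe described by maize GST 20. Its log2 ratios of FR13A over IR24 were 1.32 and 1.18 in constitutive leaves, 0.71 and 0.78 at 15 min, and -0.37 and -0.41 at 24 h. The 2 arrays of a time lay within a narrow range of each other, and the sign turned between 15 min and 24 h. The ratio at 24 h was lower than in constitutive leaves by a log2 change of -1.64 (SE 0.12, limma adjusted p = 0.0266). The ratio at 24 h on its own, -0.39, missed the threshold at an adjusted p of 0.0517. Within the 1 scan day that holds all 3 times, the change was -1.73, between a 24 h array and a constitutive array with the dyes exchanged, so that time and dye cannot be told apart in it. The call was lost without any 1 of the 6 arrays, with changes of -1.71 to -1.58 and an adjusted p of 0.0547 to 0.326, and also with the scan day as a block (-1.70, adjusted p = 0.232), with the replicate block (-1.64, adjusted p = 0.104) and with median centring in place of loess (-1.66, adjusted p = 1).

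The separate channels show where the change lay. In FR13A the log2 intensity of GST20-like was 7.34 and 7.35 at 24 h, against 9.08 and 8.89 in constitutive leaves. In IR24 it was 7.71 and 7.76 at 24 h, against 7.76 and 7.70 in constitutive leaves. FR13A thus fell to below the level of IR24, whose values at 24 h and in constitutive leaves overlapped. The difference between 24 h and constitutive leaves was -1.64 in FR13A (SE 0.16, limma adjusted p = 0.000273) and 0.00 in IR24 (SE 0.16, adjusted p = 0.997). The FR13A call held without any 1 array and with the scan day as a block (-1.59, adjusted p = 0.00767).

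OsGSTU5 with a ratio change of -0.94 (SE 0.15, adjusted p = 0.175) and OsGSTU13 with -0.90 (adjusted p = 0.181) had the next smallest p at 24 h and were not called. OsGSTU17 had a change of -1.17 (SE 0.22, adjusted p = 0.243) and OsGSTU4 of 0.82 (SE 0.22, adjusted p = 0.421). The other members spread to both sides of 0, with 33 of the 51 uncalled probes within 0.25 of it.

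**Figure D2:**
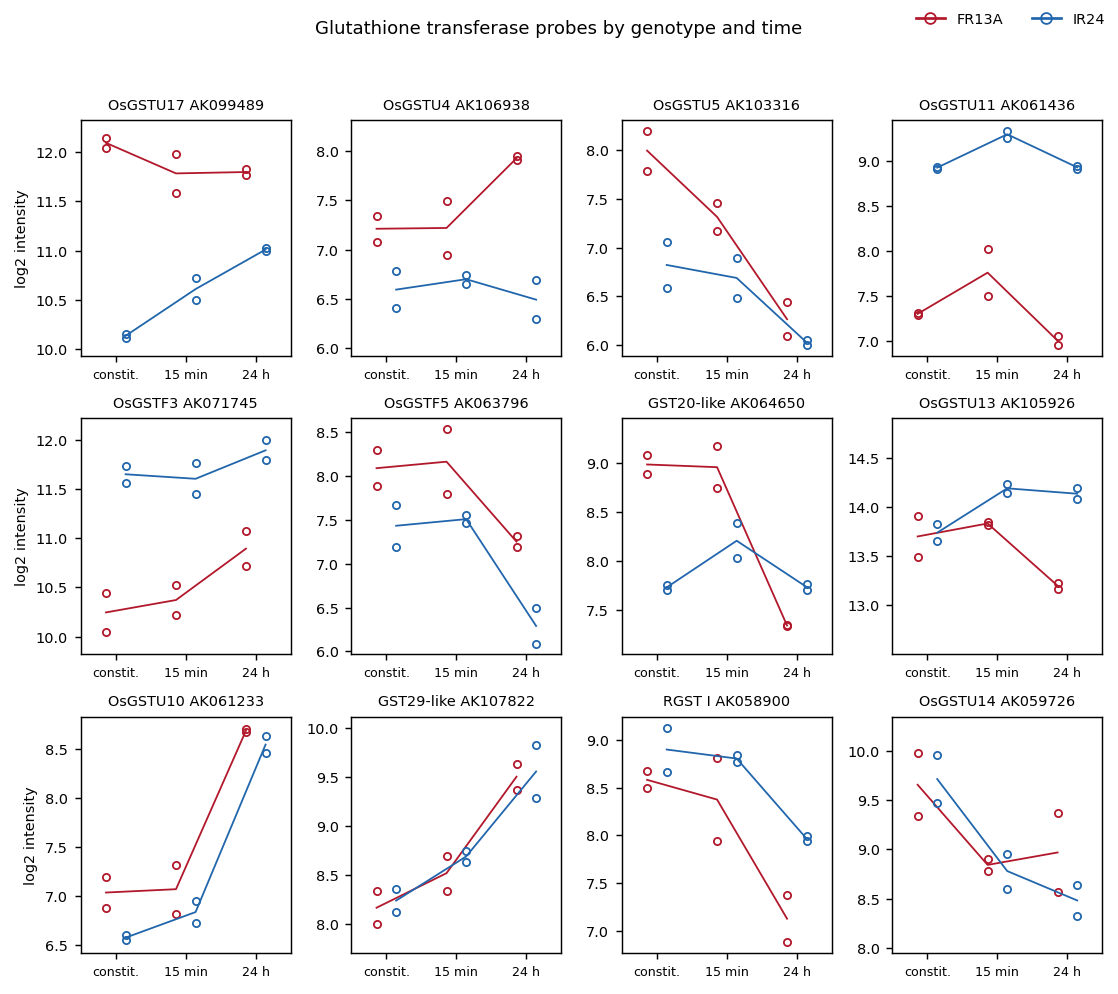
Log2 intensity (y axis) in each channel for 12 glutathione transferase probes, with FR13A in red left of IR24 in blue at each time (x axis: constitutive, 15 min, 24 h). Points are the 2 arrays and lines join their means, and each panel has its own scale, so that levels of different probes cannot be set against each other. GST20-like fell to 7.34 and 7.35 in FR13A at 24 h, OsGSTU10 rose in both genotypes, and OsGSTU17 and OsGSTU11 kept FR13A and IR24 apart at every time.

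The third question is what submergence did within each genotype. These changes lie between arrays, rest on normalisation between arrays and were tested with limma on the separate channels for the 49 members with no missing channel. At 15 min 0 of 49 members were called in FR13A, against 1.57% of all probes, and 0 of 49 in IR24, against 2.08%. The smallest p in FR13A belonged to OsGSTU8 (AK064620), with log2 intensities of 7.53 and 7.88 at 15 min, against 8.45 and 8.64 in constitutive leaves, a difference of -0.84 (adjusted p = 0.163). The rice probe gst2 (AK073086) at -0.48 (adjusted p = 0.171) and OsGSTU5 at -0.68 (adjusted p = 0.205) followed. In IR24 the smallest p belonged to OsGSTU14 (AK059726) at -0.94 (adjusted p = 0.204), GST20-like at 0.47 (adjusted p = 0.263) and OsGSTU13 at 0.45 (adjusted p = 0.273). Before adjustment 6 of the 49 members had a p under 0.05 in each genotype. Of all 18907 probes tested, 2072 did in FR13A and 1931 in IR24. None of these changes of the members was detectable after adjustment.

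At 24 h 2 members were higher and 3 lower in FR13A than before submergence, 10.2% of 49 against 10.4% of all probes. In IR24 3 were higher and 3 lower, 12.2% against 9.43%. Both shares lie near the background. The median change was -0.06 in FR13A and 0.003 in IR24, against -0.007 and -0.003 for all probes. Both genotypes were measured on the same arrays, so that their changes are not independent of each other.

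OsGSTU10 (AK061233, tau) rose in both genotypes. In FR13A its log2 intensity was 8.70 and 8.67 at 24 h, against 7.19 and 6.88 in constitutive leaves. In IR24 it was 8.63 and 8.45 at 24 h, against 6.60 and 6.55 in constitutive leaves. The 24 h arrays stood clear of the constitutive and 15 min arrays in both genotypes. The rise was 1.65 in FR13A (SE 0.18, limma adjusted p = 0.000541), or 3.13-fold, and 1.96 in IR24 (SE 0.18, adjusted p = 0.00021), or 3.90-fold. Its ratio change of -0.32 between the genotypes was not called (adjusted p = 0.809). With the processed intensities the rise in IR24 was 3.26. The second probe described as OsGSTU10, AK108900, had differences of 0.02 in FR13A and 0.05 in IR24.

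GST29-like (AK107822) also rose in both. In FR13A it had 9.64 and 9.37 at 24 h, against 8.34 and 8.003 in constitutive leaves. In IR24 it had 9.82 and 9.29 at 24 h, against 8.36 and 8.12 in constitutive leaves. The changes of 1.33 in FR13A (SE 0.20, adjusted p = 0.00288) and 1.31 in IR24 (SE 0.20, adjusted p = 0.00322) differed by 0.02 (SE 0.16, adjusted p = 0.996). The call of OsGSTU10 held without any 1 array and with the scan day as a block in both genotypes. That of GST29-like was lost without constitutive replicate 2 in FR13A (adjusted p = 0.0502), without 24 h replicate 1 in IR24 (adjusted p = 0.053), and with the scan day as a block (1.15 in FR13A, adjusted p = 0.0693, and 1.13 in IR24, adjusted p = 0.0714).

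OsGSTU5 (AK103316, tau) was the member called lower at 24 h in both genotypes. In FR13A its log2 intensity was 6.09 and 6.44 at 24 h, against 8.20 and 7.79 in constitutive leaves, a difference of -1.73 (SE 0.21, adjusted p = 0.00086). In IR24 it was 6.0 and 6.06 at 24 h, against 7.06 and 6.59 in constitutive leaves, a difference of -0.80 (SE 0.21, adjusted p = 0.0413). Only 1 of the 2 arrays at 24 h had it well above background in each genotype, so these low levels lie near the limit of detection. The FR13A call held without any 1 array. The IR24 call was lost without either constitutive or either 24 h array (-1.03 to -0.56, adjusted p up to 0.26) and with the scan day as a block (-1.05, adjusted p = 0.0685). With the processed intensities the differences were -3.42 in FR13A and -2.19 in IR24.

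RGST I (AK058900), described as a rice glutathione transferase, was lower at 24 h in both genotypes, with a call in FR13A alone. Its log2 intensity there was 6.88 and 7.37 at 24 h, against 8.67 and 8.50 in constitutive leaves, a difference of -1.46 (SE 0.31, adjusted p = 0.0167). In IR24 it had 7.94 and 7.995 at 24 h, against 9.13 and 8.67 in constitutive leaves, a difference of -0.94 (adjusted p = 0.103). The channels of 24 h and constitutive leaves did not overlap in either genotype, and the difference between the genotypes' changes, -0.52 (SE 0.34, adjusted p = 0.86), was not called. Without either constitutive or either 24 h array the FR13A call was lost (-1.70 to -1.21, adjusted p up to 0.171), as it was with the scan day as a block (-1.45, adjusted p = 0.112).

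In IR24 3 further probes were called at 24 h. OsGSTU17 had 10.998 and 11.02 at 24 h, against 10.15 and 10.12 in constitutive leaves, a rise of 0.88 (SE 0.18, adjusted p = 0.0158). In FR13A it had 11.83 and 11.77 at 24 h, against 12.05 and 12.14 in constitutive leaves, a difference of -0.30. OsGSTU17 in IR24 remained below FR13A at 24 h. OsGSTF5 was at 6.49 and 6.09 at 24 h in IR24, against 7.67 and 7.20 in constitutive leaves, a difference of -1.14 (SE 0.28, adjusted p = 0.031). OsGSTU14 was at 8.32 and 8.64, against 9.47 and 9.96, a difference of -1.23 (SE 0.29, adjusted p = 0.0262). In FR13A the differences were -0.84 for OsGSTF5 and -0.69 for OsGSTU14, neither of them called, and the changes of the ratio, 0.31 and 0.55, were not called either (adjusted p = 0.925 and 0.752). All 3 calls were lost without either constitutive or either 24 h array, with adjusted p up to 0.138 for OsGSTU17, 0.226 for OsGSTF5 and 0.155 for OsGSTU14, and with the scan day as a block, with 0.91, -1.30 and -0.78. That of OsGSTF5 was also lost with the replicate block (adjusted p = 0.0504), and with the processed intensities its difference was -2.14.

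**Figure D3:**
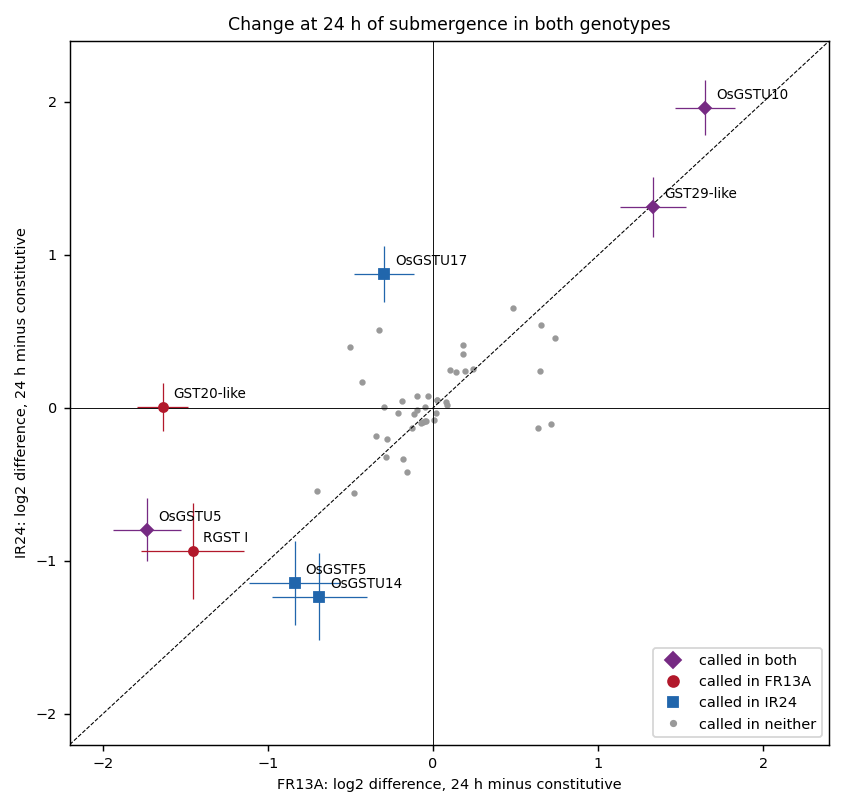
Log2 difference between 24 h of submergence and constitutive leaves in FR13A (x axis) and in IR24 (y axis) for the 49 glutathione transferase probes with no missing channel. Bars are standard errors of the limma fit for called probes, colours and shapes give the genotype in which a probe was called, and the dashed line marks equal change. OsGSTU10 and GST29-like lie at the upper right, OsGSTU5 at the lower left, and GST20-like at -1.64 in FR13A and 0.00 in IR24.

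Within the 1 scan day that held an array of each time, the differences between 24 h and constitutive leaves kept their direction. They were 1.48 in FR13A and 1.85 in IR24 for OsGSTU10, 1.03 and 0.93 for GST29-like, -1.763 and -1.003 for OsGSTU5, and -1.30 and -1.14 for RGST I. These are single pairs of arrays with the dyes exchanged, so that time and dye cannot be told apart in them. At the other scan days no array pair allows this comparison. In root markers 2 of 8 probes rose at 24 h in FR13A and 1 rose and 1 fell in IR24, and in seed storage markers 1 of 7 rose in each genotype, 25% and 14.3% of the markers against 10.4% of all probes in FR13A and 9.43% in IR24. Summed seed markers were 1285 to 1520 in FR13A at 24 h, against 940 to 996 in constitutive leaves, and 1192 to 1337 in IR24 at 24 h, against 918 to 1032. The part of these markers in the changes above was not tested.

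By class, the 24 tau probes had 1 called rise (OsGSTU10) and 1 called fall (OsGSTU5) in FR13A and 2 rises and 2 falls in IR24, with median changes of -0.15 and -0.05. The tau probe OsGSTU12 (AK108376) lacked a value on 1 constitutive array and was not tested within a genotype. Named after its values were seen, it had log2 intensities of 12.918 and 12.465 in FR13A at 24 h, against 10.074 on the other constitutive array. In IR24 it had 12.584 and 12.404, against 10.172. Whether it rose was not tested. The 4 phi probes had no call in FR13A and 1 fall (OsGSTF5) in IR24. The 4 theta and zeta probes had none in either, with medians of 0.15 and 0.24. The 17 probes without a class had 1 rise and 2 falls in FR13A and 1 rise in IR24. The 44 uncalled probes in FR13A ranged from -0.84 to 0.74 and the 43 in IR24 from -0.94 to 0.66. In total 17 of the 54 probes were called in at least 1 of the 10 comparisons and 37 in none. The 37 include GST28-like, which was not tested. They also include probes with a missing channel, such as OsGSTU12 (AK108376), that had no test within a genotype. The 17 are 32.1% of the 53 probes that passed the filter, against 28.9% of all probes that did, so that the share lies near the background. The probe AK069604, described by a barley glutathione transferase, had discordant arrays, with log2 ratios of -0.06 and 1.501 at 24 h and of -0.11 to 0.08 on the other 4 arrays.

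Genes that supply or use glutathione were looked at next. Glutathione is made from glutamate, cysteine and glycine by gamma-glutamylcysteine synthetase and glutathione synthetase, and glutathione reductase restores its reduced form. Of 8 tested probes for these enzymes, 2 were higher in FR13A than in IR24 over all times and at each of the 3 times, and 0 were lower. The 25% is near the 20.2% of all probes over all times, and the share of all probes was 6.15% in constitutive leaves, 5.33% at 15 min and 7.63% at 24 h. The median of the 8 over all times was 0.08, against -0.004 for all probes. The glutathione synthetase-like probe AK099555 had log2 ratios of 1.05 and 1.29 in constitutive leaves, 0.81 and 1.14 at 15 min, and 0.55 and 0.67 at 24 h. Its mean difference was 0.92 (SE 0.07, limma adjusted p = 0.00071). The gamma-glutamylcysteine synthetase probe AK100428 had 0.50 and 0.82, then 0.69 and 0.90, then 0.67 and 0.88, with a mean of 0.74 (SE 0.07, adjusted p = 0.00158). Both probes lay above 0 on 6 of 6 arrays, and both mean differences held without any 1 array. At the single times AK099555 was at 1.17 (adjusted p = 0.0061), 0.97 (0.0125) and 0.61 (0.0384), and AK100428 at 0.66 (0.0375), 0.80 (0.0229) and 0.78 (0.0191). Each of these 6 calls was lost without at least 1 array of its own time, with an adjusted p of up to 0.271 for AK099555 and 0.208 for AK100428, and with median centring. The scan day as a block ended that of AK099555 at 24 h (adjusted p = 0.054) and that of AK100428 in constitutive leaves (0.0595), and the processed intensities that of AK099555 at 24 h (0.0589).

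AK099555 was also lower at 24 h than in constitutive leaves in both genotypes, with a call in FR13A alone. In IR24 its log2 intensity was 9.09 and 9.10 at 24 h, against 9.78 and 9.26 in constitutive leaves. The change of its ratio at 24 h was not called. In FR13A it had 9.64 and 9.77 at 24 h, against 10.83 and 10.55 in constitutive leaves, a difference of -0.98 (SE 0.18, adjusted p = 0.00829). The call was lost without either 24 h array, with an adjusted p of up to 0.0996, and held with the scan day as a block at -1.15. The other 2 probes described as gamma-glutamylcysteine synthetase, AK103315 and AK111358, were not called in any comparison tested.

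Glyoxalase I and II use glutathione to clear methylglyoxal, a toxic by-product of glycolysis. Of 5 tested probes, 2 fell at 24 h in both genotypes, 40% against 10.4% of all probes in FR13A and 9.43% in IR24. The median of the 5 was -0.54 in FR13A and -0.56 in IR24, against -0.007 and -0.003 for all probes. The glyoxalase I-like probe AK058486 had log2 intensities of 9.45 and 9.65 in FR13A at 24 h, against 11.16 and 11.25 in constitutive leaves, a difference of -1.66 (SE 0.24, adjusted p = 0.0023). In IR24 it had 10.26 and 9.72 at 24 h, against 11.70 and 11.34, a difference of -1.53 (adjusted p = 0.00364). The glyoxalase II probe AK070780 differed by -1.25 in FR13A (adjusted p = 0.00321) and by -1.44 in IR24 (adjusted p = 0.00153). These 4 calls held without any 1 array, but for AK058486 in IR24 without constitutive replicate 1, where the adjusted p was 0.0501. The same call was lost with the scan day as a block (-1.62, adjusted p = 0.051). Between the genotypes over all times, the glyoxalase II-like probe AK067930 at 0.43 (adjusted p = 0.0109) and the glyoxalase I probe AK066092 at 0.30 (adjusted p = 0.0343) were higher in FR13A. AK067930 kept its call without any 1 array, and AK066092 lost it without any 1 array but 15 min replicate 1 (adjusted p up to 0.119). Both calls were lost with median centring, and that of AK066092 with the processed intensities.

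Dehydroascorbate reductase, which recycles ascorbate with glutathione, and glutathione peroxidases made up 4 probes tested between the genotypes and 3 tested within them. At 24 h 1 of the 3 rose and 1 fell in FR13A, 66.7% against 10.4% of all probes. In IR24 1 fell, 33.3% against 9.43%. Over all times 1 of the 4 was higher in FR13A, 25% against 20.2%. The dehydroascorbate reductase probe AK070895 had log2 intensities of 6.68 and 7.24 in FR13A at 24 h, against 8.01 and 7.89 in constitutive leaves, a difference of -0.99 (adjusted p = 0.0192). In IR24 it had 6.87 and 7.05 at 24 h, against 7.95 and 7.91, a difference of -0.97 (adjusted p = 0.0226). The putative peroxidase riPHGPX, AK073938, rose by 0.59 in FR13A at 24 h (adjusted p = 0.0186). In IR24 it had 11.22 and 11.38 at 24 h, against 10.93 and 10.79 in constitutive leaves, and was not called. Its change of the ratio at 24 h was not called either. These 3 calls were lost with the scan day as a block (adjusted p = 0.152, 0.162 and 0.101), without either constitutive array and without 24 h replicate 1 (adjusted p up to 0.192), and those of AK070895 in IR24 and AK073938 also without 24 h replicate 2. With the processed intensities AK073938 lost its call, and AK070895 was at -1.56 in FR13A and -1.47 in IR24. The peroxidase-like probe AK101583 was higher in FR13A over all times by 0.26 (adjusted p = 0.0261), a call lost without any 1 array but constitutive replicate 2 (adjusted p up to 0.0914), with the scan day as a block (0.0538) and with median centring (0.674).

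Among 3 glutaredoxin probes 0 were called by limma in the 10 comparisons, with 3 unadjusted p under 0.05 among them, and the 1 phytochelatin synthase-like probe had 0 of either. Of 2 probes for transporters of the MRP type, which carry glutathione conjugates into the vacuole, AK099941 was higher in FR13A over all times by 0.30 (adjusted p = 0.0466), and the call was lost without any 1 array (adjusted p 0.0527 to 0.143) and with median centring, while the processed intensities gave 0.56. Sugar conjugation is another route of detoxification. Of 56 glucosyltransferase probes tested, 10 were higher and 7 lower in FR13A over all times, with a median of 0.03. That is 30.4%, against 20.2% of all probes. At 24 h 2 rose and 7 fell of 52 in FR13A, and 1 rose and 9 fell in IR24, with medians of -0.15 and -0.12, and the called shares were 17.3% in FR13A and 19.2% in IR24, against 10.4% and 9.43% of all probes. The smallest p there belonged to AK071136, described by a bean glucosyltransferase, with a difference of -4.53 in FR13A (adjusted p = 3.42e-05) and -4.36 in IR24 (adjusted p = 4.18e-05).

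**Figure D4:**
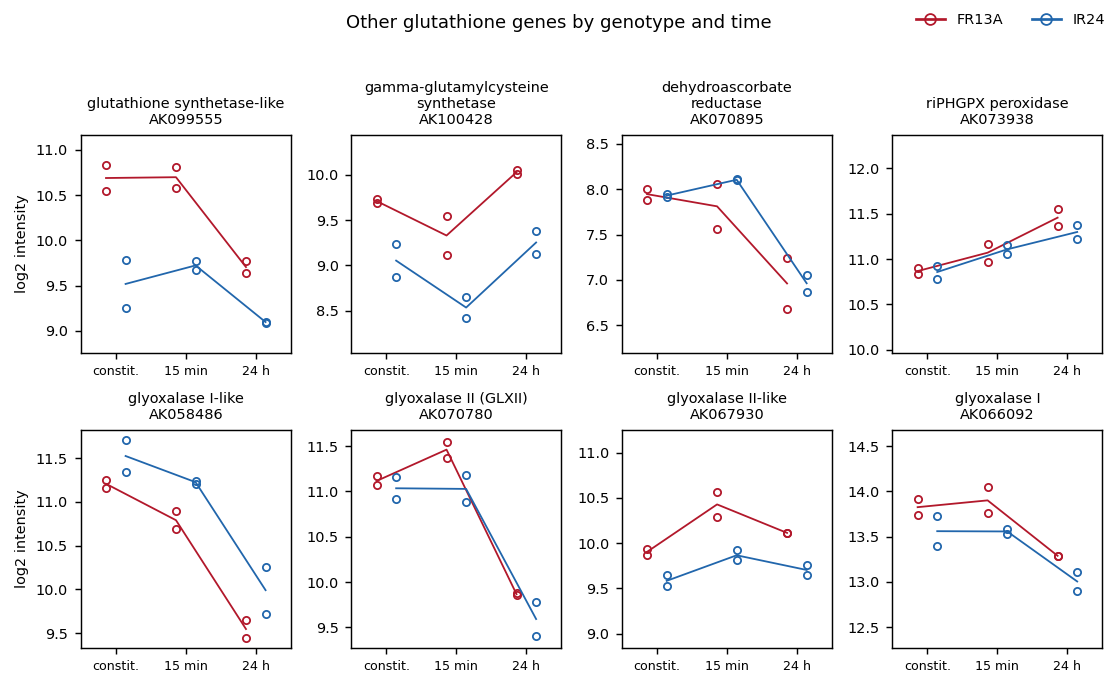
Log2 intensity (y axis) in each channel for 8 probes of enzymes that make or use glutathione, with FR13A in red left of IR24 in blue at each time (x axis). Points are the 2 arrays and lines join their means, and each panel has its own scale. The glutathione synthetase-like and gamma-glutamylcysteine synthetase probes were higher in FR13A at each time, and glyoxalase I-like AK058486 and glyoxalase II AK070780 were lower at 24 h than before in both genotypes.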

How the data were processed

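Leaf RNA of 2 rice genotypes was measured on 6 arrays with 2 dyes, grouped as the labels state. Per the file headers, each deposited file holds mean spot and median background intensity in both dyes, a processed intensity and a log10 ratio (red to green). Agilent Feature Extraction 8.1 is named in the submitters' processing notes, and its settings, per the file headers, included spatial detrending and dye normalisation. The deposited series table holds the authors' log10 ratios, which correlated at 1 or -1 with those of the scanner files, are centred at 0 and run as FR13A over IR24.

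From the mean and background intensities, background was corrected with normexp (offset 50) and a loess curve was fitted per array (limma 3.58.1, R 4.3.3). Control spots had no weight, and values of outlier spots were set to missing. Probes passed the filter if well above background in 1 channel or more on 2 or more of the 6 arrays, which kept 20315 of 21495 gene probes. Log2 ratios were fitted with 1 mean per time (degrees of freedom 3 residual, 2.629 prior). Within-genotype changes were fitted on the 12 channels after Aquantile normalisation, for 18907 probes with no missing channel (1408 left out), with an intraspot correlation of 0.493. The 10 comparisons used limma's two-sided test, and p-values were adjusted by Benjamini-Hochberg over all probes of each. Comparisons that share the constitutive arrays are not independent.

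The description gives each name, and none of the cDNA numbers (0) matched the RefSeq table, so no coordinates are given. Per comparison up to 6 called members higher and 6 lower were described, if they had 1 direction on every array or no overlap of channels, or else the 3 with the smallest p where fewer than 3 were called, and up to 3 probes per pathway list. The members and lists were chosen with earlier results of these data known. The fits were tested on simulated data. Of 100 probes given a log2 change of 1, 54 were called for the ratio at 24 h. For the change at 24 h within FR13A, 52 of 100 were. At a log2 change of 2, 97 of 100 were called in each. Among the unchanged probes 4 and 13 were called. A 2-fold difference can thus go uncalled. Alternatives were the processed intensities, median centring, no filter, the scan day or replicate as a block, the deposited ratios and leaving out each array.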

Additional observations from a re-analysis of the deposited data

Results flagged for a closer look

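The FR13A over IR24 ratio of GST20-like (AK064650) changed by -1.64 on the log2 scale (SE 0.12) between constitutive leaves and 24 h of submergence. It stands out because the change differed between the genotypes by a test of that difference (limma adjusted p = 0.0266). The 24 h group was also harvested 1 day later, so that submergence and growth cannot be told apart. The difference between 24 h and constitutive leaves was -1.64 in FR13A and 0.00 in IR24. The call was lost when any 1 of the 6 arrays was left out, while the size remained between -1.71 and -1.58. It was also lost with the scan day as a block, with the replicate block and with median centring.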

How the results depend on the processing

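Of the 42 called results for single members, 4 over all times (OsGSTU6, OsGSTU10, GST20-like and OsGSTU13) fell outside the rule for full description, and their alternatives stand beside their values. Of the other 38 called results, 15 kept the call when any 1 array was left out and 23 lost it without at least 1, and none of them changed sign. The scan day as a block ended 14 of the 38 calls, median centring 18, the replicate block 4, the processed intensities 2 and no filter on dim probes 1. In the authors' deposited ratios, which exist for 32 of the differences described in full, 16 moved by more than the spread between replicates and no called difference changed sign. For the counts of called members, leaving out each array gave 10 to 16 over all times (13 with all arrays), 1 to 5 in constitutive leaves (5), 1 to 5 at 15 min (5), 1 to 8 at 24 h (7), 0 to 0 for the change of the ratio at 24 h (1), 3 to 7 at 24 h in FR13A (5) and 1 to 7 at 24 h in IR24 (6). Where an arm was left with 1 array, that array is assumed to vary like the other groups. In constitutive leaves 8 members were called with the processed intensities, 2 with median centring and 8 with the replicate block. Median centring gave 5 over all times, 1 at 15 min, 1 at 24 h and 0 for the change of the ratio at 24 h. The scan day as a block gave 3 at 15 min, 0 for the change of the ratio at 24 h, 3 at 24 h in FR13A and 1 at 24 h in IR24. The replicate block gave 0 for the change of the ratio at 24 h. The cause of these moves was not tested. The replicate number marks the dye orientation. Deviations of same-numbered arrays correlated at 0.0995 between constitutive and 15 min, 0.0593 between constitutive and 24 h, and 0.402 between 15 min and 24 h. Same-numbered arrays of 15 min and 24 h also share a scan day and a dye orientation. Whether the numbers pair the samples cannot be told apart from these. Beyond the counts named here, the replicate block left each count within 1.5 times its value. The number of arrays limits the precision, and of the 54 probes 42 were well above background in all 12 channels.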
